A study of Mus musculus with 8 samples.

Results

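The choroid plexus genes examined here are 10 genes that mark the epithelium of the choroid plexus, picked by gene symbol from a list that was drawn up with earlier results of these data known: Ttr, Kl, Kcne2, Enpp2, Folr1, Clic6, Aqp1, Otx2, Slc4a5 and Kcnj13. The array carried 13 probes for them. Of these probes 11 passed the detection filter, under which at least 3 of the 4 mice of 1 genotype needed a signal well above background. Every gene kept at least 1 probe, so all 10 were tested, among 15288 tested genes in all.

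Brain RNA was compared between 4 homozygous Pus1 mutant mice and 4 wild-type mice on Agilent 2-colour expression arrays. The product of Pus1, pseudouridine synthase 1, changes chosen uridines of tRNAs and other RNAs into pseudouridine. The labels name the mutants as homozygous and do not describe the mutation further. All mice were 14 to 16 weeks old and on a C57BL/6J background after 5 backcross generations, and RNA came from a frozen cross section of the brain. Each of the 4 arrays held 1 mutant and 1 wild-type mouse with the same number and sex, and these 2 mice are called a pair. The females made up pairs 1 and 2, the males pairs 3 and 4. Cy5 labelled the mutant in pairs 1 and 3, and Cy3 did so in pairs 2 and 4.

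The choroid plexus is a folded tissue inside the brain ventricles. Its epithelium secretes the cerebrospinal fluid by moving sodium, chloride, bicarbonate and water out of the blood, and it makes proteins that are released into that fluid. Transthyretin, the product of Ttr, carries thyroxine and retinol-binding protein and is the best known of them. In RNA from a piece of brain, fewer choroid plexus cells and less RNA of these genes per cell cannot be told apart.

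Promoter sequences were available for 6 of the 10 genes (RefSeq, GRCm38.p6). Windows of 4 genes are shown as examples of 2 patterns across mice that are described further on. Kcne2 and Slc4a5 varied with Ttr, whereas Kcnj13 and Otx2 varied with each other. The windows of Kl and Aqp1, which also varied with Ttr, are not shown. Kcne2 and Otx2 have several annotated starts, and the first listed is shown. Each window is the 250 bases before an annotated start, 5′ to 3′ on the strand of the gene. The Kcne2 window is chr16:92292139-92292388 on the plus strand, the Slc4a5 window chr6:83237125-83237374 on the plus strand, the Kcnj13 window chr1:87394730-87394979 on the minus strand and the Otx2 window chr14:48667645-48667894 on the minus strand. Capitals mark matches, on either strand, to 3 motifs: TAATCC, the core recognised by the OTX2 protein, TATAAA, the TATA box, and CCAAT.
Kcne2: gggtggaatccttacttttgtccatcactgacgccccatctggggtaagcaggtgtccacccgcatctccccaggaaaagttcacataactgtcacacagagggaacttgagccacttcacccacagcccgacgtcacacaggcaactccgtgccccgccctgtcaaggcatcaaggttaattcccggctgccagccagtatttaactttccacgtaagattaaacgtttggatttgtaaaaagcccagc
Slc4a5: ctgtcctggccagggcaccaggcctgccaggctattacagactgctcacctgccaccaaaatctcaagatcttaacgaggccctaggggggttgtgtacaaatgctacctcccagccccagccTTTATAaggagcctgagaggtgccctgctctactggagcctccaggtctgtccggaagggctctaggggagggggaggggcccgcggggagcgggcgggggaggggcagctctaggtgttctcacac
Kcnj13: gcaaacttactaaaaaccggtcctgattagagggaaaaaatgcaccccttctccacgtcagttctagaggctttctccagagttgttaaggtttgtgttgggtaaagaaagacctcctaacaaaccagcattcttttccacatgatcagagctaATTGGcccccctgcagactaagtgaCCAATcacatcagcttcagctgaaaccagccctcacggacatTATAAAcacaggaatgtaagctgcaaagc
Otx2: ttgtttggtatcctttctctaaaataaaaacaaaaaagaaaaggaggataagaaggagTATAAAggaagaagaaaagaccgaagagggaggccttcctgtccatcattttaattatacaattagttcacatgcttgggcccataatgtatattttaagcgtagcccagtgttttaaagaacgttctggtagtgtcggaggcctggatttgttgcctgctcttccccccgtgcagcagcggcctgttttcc

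The Kcnj13 window held TATAAA 29 bases before the start and 2 CCAAT matches, the farther of them 96 bases before it. The Slc4a5 window held TATAAA on the opposite strand 127 bases before the start, the Otx2 window held it 192 bases before the start, and the Kcne2 window held none of the 3 motifs. None of these 4 windows held TAATCC. Over all 10 windows of the 6 genes, TAATCC occurred in 1, that of another Otx2 start. Among 32851 promoter windows of the same length, 6.25% held TAATCC, 12.4% TATAAA and 33.9% CCAAT, and the motifs did not overlap each other in the windows shown. These matches describe letters in the windows and do not show that a factor binds there.

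The arrays lay on 1 slide. Between 56.3% and 67.7% of probes were well above background in the 8 channels, and the 10 genes' probes were single spots with no saturated reading. Pus1 itself was lower in the mutant in all 4 pairs, with log2 ratios of -2.07, -2.94, -2.61 and -2.75, which checks the genotype labels: it averaged 7.01 ± 0.18 in mutant mice and 9.60 ± 0.43 in wild-type mice on the normalized log2 intensity scale (SD, n = 4 each), 6.03-fold lower in the mutant (limma adjusted p = 0.0364). Pair 2 had the widest spread in the whole data: the SD of its log2 ratios over all tested probes was 0.633, against 0.279, 0.395 and 0.329 in pairs 1, 3 and 4. Its ratios correlated across probes at r = -0.39, -0.14 and 0.26 with those of pairs 1, 3 and 4. Among the other pairs, r was 0.34 for pairs 1 and 3, -0.10 for pairs 1 and 4 and 0.07 for pairs 3 and 4. Lists of genes typical of single brain regions also differed within pairs: 8 tested cortex and hippocampus genes had a median log2 ratio of -2.21 in pair 2, and 8 tested striatum genes -1.26 in pair 4. The part of brain region in the results below was not tested.

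None of the 10 choroid plexus genes differed between mutant and wild-type brains beyond the spread between pairs. No gene passed an adjusted p of 0.05 (limma, Benjamini-Hochberg over all 33307 tested probes), where 0.00901% of all tested probes did, 0.003% higher and 0.006% lower in the mutant. None reached an unadjusted p of 0.05 either, a level passed by 6.05% of tested probes, and the 10 unadjusted p-values lay between 0.350 and 0.908. The mean log2 mutant over wild-type ratio was negative for 9 of the 10 genes and positive for Clic6, with a median of -0.23 beside 0.01 over all tested genes. For each of the 10, the mean ratio was smaller than the SD of the 4 pairs and the 95% interval included 0. The levels of the mutant and wild-type mice overlapped for all 10, whereas they did not overlap for 1.02% of tested probes.

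What the genes did show was a large spread between mice and opposite directions in different pairs. In pair 2 all 10 were higher in the mutant mouse, with a median log2 ratio of 1.26, and in pairs 3 and 4 all 10 were lower, with medians of -0.84 and -0.89, except that with median centring in place of loess Clic6 at 0.04 and Kcnj13 at 0.21 were above 0 in pair 3. In pair 1, 6 were higher and 4 lower, with a median of 0.07. Over all tested genes the shares higher in the mutant were 54.1%, 49.5%, 46.9% and 52.1% in pairs 1 to 4. Without pair 2 the median of the 10 genes was -0.66, and without pair 4 it was 0.31. Those fits even out the dye orientations, so the pair left alone in its orientation counted as much as the other pairs together.

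**Figure D1:**
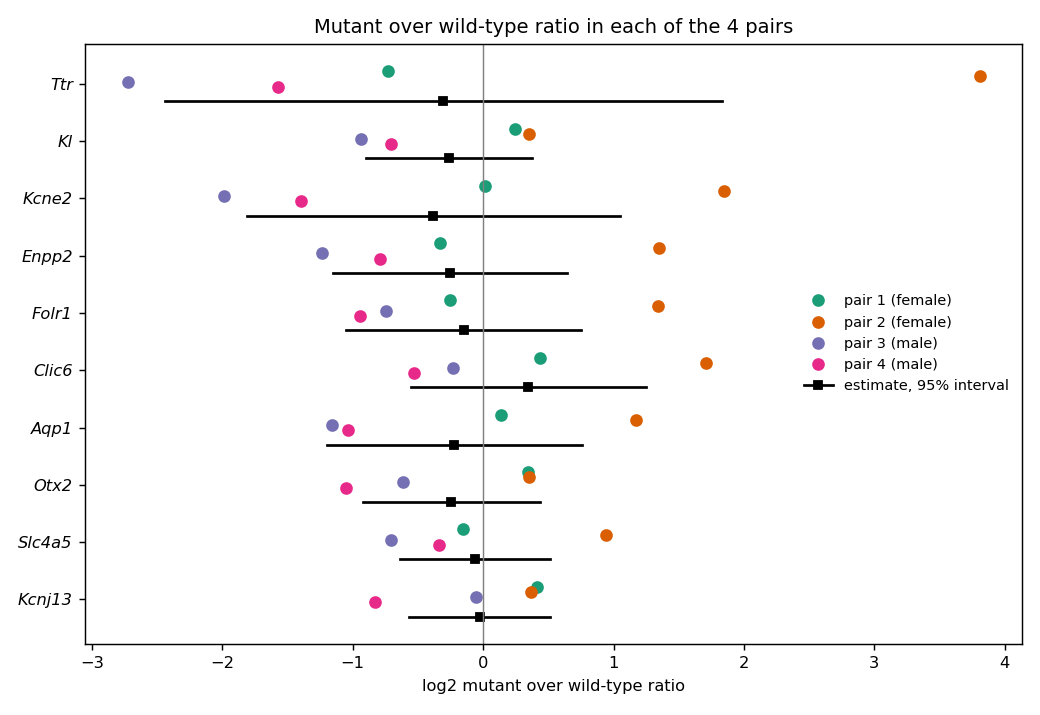
Log2 mutant over wild-type ratio (horizontal axis) of each of the 10 choroid plexus genes in the 4 pairs (coloured points), with the limma estimate (black square) and its 95% interval (black line). Pair 2 lies right of 0 and pairs 3 and 4 lie left of 0 for every gene on this loess scale (with median centring Clic6 and Kcnj13 turn in pair 3), and every interval includes 0.

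Among the genes for secreted and carrier proteins, Ttr spanned the widest range. Its normalized log2 intensity was 10.58, 14.62, 12.21 and 14.64 in mutant mice 1 to 4, against 11.31, 10.81, 14.93 and 16.22 in wild-type mice 1 to 4. Mutant mouse 1 and wild-type mice 1 and 2 were low, wild-type mice 3 and 4 and mutant mice 2 and 4 were high, and the genotypes overlapped. The highest mouse was 49.8-fold above the lowest, which ranked 17 of 15288 genes for range over the 8 mice. Among the mutants alone the highest was 16.7-fold above the lowest, and among the wild types 42.6-fold.

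Within pairs, Ttr was 1.66-fold lower in the mutant in pair 1, 14.0-fold higher in pair 2, 6.60-fold lower in pair 3 and 2.98-fold lower in pair 4. The mean log2 ratio was -0.31 ± 2.86 (SD over 4 pairs), with a 95% interval of -2.44 to 1.83 and a limma adjusted p of 0.967. The interval comes from limma, which moderates each probe's spread with that of all probes and fits a dye term beside genotype.

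Enpp2 encodes autotaxin, a secreted enzyme that makes lysophosphatidic acid. It is also expressed by oligodendrocytes, so its level in brain is not that of the choroid plexus alone. Its levels were 14.20, 15.42, 13.37 and 14.05 in mutant mice, against 14.54, 14.08, 14.60 and 14.85 in wild-type mice. Mutant mouse 2 was the highest and mutant mouse 3 the lowest of all 8, with the 4 wild types between them. The mean log2 ratio was -0.25 ± 1.13 (SD over 4 pairs), with a 95% interval of -1.15 to 0.64.

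Folr1 encodes folate receptor alpha, which carries folate through the plexus epithelium. Its levels were 8.75, 9.63, 8.58 and 9.81 in mutant mice, against 8.997, 8.29, 9.32 and 10.76 in wild-type mice. Wild-type mouse 4 was highest and wild-type mouse 2 lowest, so the mutants lay inside the wild-type range. Its ratio averaged -0.15 ± 1.03 on the log2 scale (SD over 4 pairs), with a 95% interval of -1.05 to 0.75.

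Kl encodes Klotho, a membrane protein that acts as a co-receptor for the hormone FGF23 and is also shed into cerebrospinal fluid. Its levels were 7.24, 8.48, 7.16 and 8.99 in mutant mice, against 6.997, 8.14, 8.10 and 9.70 in wild-type mice. The mice of arrays 2 and 4, at 8.14 to 9.70, all lay above those of arrays 1 and 3, at 6.997 to 8.10, in both genotypes. The mean log2 ratio was -0.26 ± 0.65 (SD over 4 pairs), with a 95% interval of -0.90 to 0.38.

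The channel and transporter genes overlapped between the genotypes as well. Aqp1 encodes the water channel of the epithelium's ventricular face. Its levels were 7.13, 8.58, 6.80 and 8.62 in mutant mice, against 6.997, 7.41, 7.95 and 9.66 in wild-type mice. Wild-type mouse 4 was the highest. Mutant mouse 3 had the lowest reading, the only 1 of the 8 not well above background. Averaged over pairs, the log2 ratio was -0.22 ± 1.10 (SD over 4 pairs), with a 95% interval of -1.20 to 0.76.

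Kcne2 encodes a small subunit that alters the gating of potassium channels. Its levels were 6.91, 8.79, 6.67 and 8.60 in mutant mice, against 6.90, 6.94, 8.66 and 9.999 in wild-type mice. Wild-type mouse 4 was the highest, and 4 mice, mutants 1 and 3 and wild types 1 and 2, lay between 6.67 and 6.94 at the low end. It was not well above background in mutants 1 and 3 and wild type 2, so their readings have no order. The mean log2 ratio was -0.38 ± 1.71 (SD over 4 pairs), with a 95% interval of -1.81 to 1.05, the most negative mean of the 10.

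For this dim probe the size of the ratios depended on the processing, in which background correction and normalization both differed. Pairs 1 to 4 had log2 ratios of 0.01, 1.85, -1.99 and -1.40 after normexp and loess. The scanner software's ratios were 0.29, 3.09, -3.26 and -1.49, and those computed from the authors' deposited table were 0.41, 2.79, -3.44 and -1.39. Pairs 2 and 3 were thus farther from 0 on both deposited scales, in the same directions. Kl and Slc4a5 likewise had larger ratios in single pairs with the scanner software's values: -1.83 against -0.94 for Kl in pair 3, and 1.81 against 0.94 for Slc4a5 in pair 2.

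Slc4a5 encodes a sodium bicarbonate cotransporter of the ventricular face. Its levels were 7.14, 8.30, 7.25 and 7.97 in mutant mice, against 7.29, 7.35, 7.96 and 8.31 in wild-type mice. It had the smallest range of the 10, 2.25-fold, with wild-type mouse 4 and mutant mouse 2 nearly level at the top. Its mean log2 ratio was -0.06 ± 0.71 (SD over 4 pairs), with a 95% interval of -0.64 to 0.51.

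Clic6 encodes a member of the chloride intracellular channel family. Its levels were 10.52, 10.11, 10.37 and 10.77 in mutant mice, against 10.08, 8.40, 10.59 and 11.30 in wild-type mice. The mutants lay close together, with a 1.57-fold range, inside a 7.43-fold range of the wild types that wild-type mouse 2 set at the low end and wild-type mouse 4 at the high end. Clic6 was the only gene of the 10 with a positive mean log2 ratio, 0.35 ± 0.99 (SD over 4 pairs), with a 95% interval of -0.55 to 1.25.

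Kcnj13 encodes Kir7.1, an inward rectifier potassium channel. Its levels were 10.02, 9.24, 10.14 and 9.41 in mutant mice, against 9.61, 8.87, 10.19 and 10.24 in wild-type mice. Both mice of pair 2 were low, and the mean log2 ratio was -0.03 ± 0.58 (SD over 4 pairs), with a 95% interval of -0.57 to 0.51.

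Otx2 encodes a homeodomain transcription factor that is needed to form and maintain the choroid plexus. Its levels were 10.80, 8.91, 10.73 and 9.66 in mutant mice, against 10.46, 8.56, 11.35 and 10.71 in wild-type mice. Both mice of pair 2 were the lowest, and wild-type mouse 3 the highest. Over the 4 pairs the log2 ratio averaged -0.24 ± 0.70 (SD over 4 pairs), with a 95% interval of -0.92 to 0.43.

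**Figure D2:**
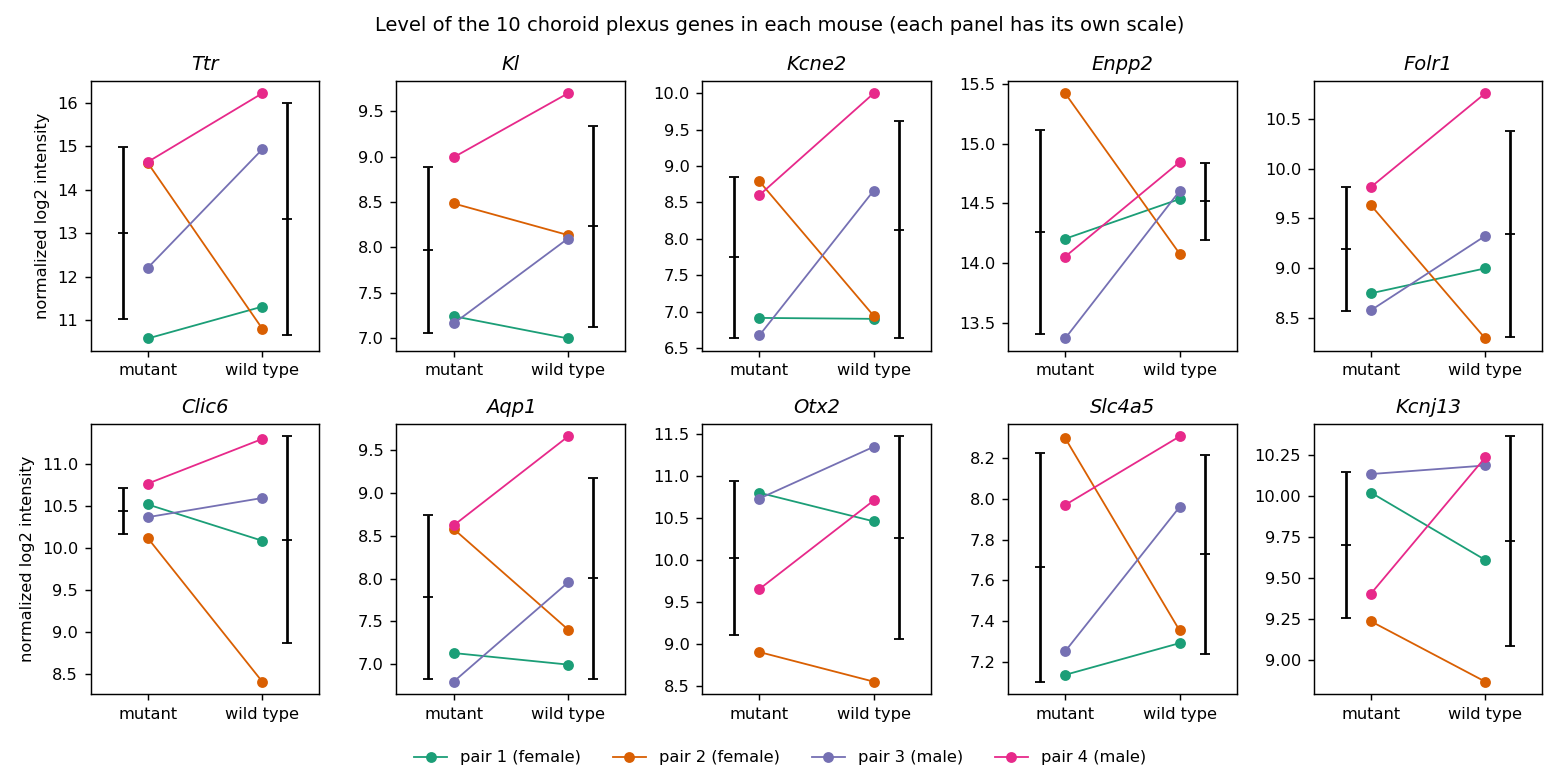
Normalized log2 intensity (vertical axis, a separate scale for each gene) of the 10 choroid plexus genes in the mutant and wild-type mouse of each pair, joined by a line. Black bars give the mean and SD of the 4 mice of a genotype, and the genotypes overlap in every panel, with lines that slope down in pair 2 and up in pairs 3 and 4.

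The spread was wide against that of all tested genes, but some lists of brain region genes spread more. The median range was 2.74 log2 units for the 10 genes and 0.83 for all tested genes. It was 4.65 for cerebellum, 4.59 for hypothalamus, 3.02 for cortex and hippocampus, 2.72 for thalamus and 2.09 for striatum genes. For 7 of the 10 the range over the 8 mice lay above percentile 95 of all tested genes, and Slc4a5, at percentile 72.7, was the lowest of the 10. Wild-type mouse 4 had the highest level of 8 of the 10 genes, the exceptions being Enpp2 and Otx2. Wild-type mouse 2 had the lowest level of 4 of the 10. In single pairs, 6 of the 10 genes were over 2-fold higher in the mutant in pair 2, where 5.57% of all tested genes were. In pair 3, 4 of the 10 were over 2-fold lower, against 0.733% of all tested genes, and in pair 4 likewise 4 of the 10, against 0.674%.

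The direction of the ratios divided partly by sex. For 6 of the 10 genes, Kl, Kcne2, Clic6, Aqp1, Otx2 and Kcnj13, both female mutants were above and both male mutants below their wild-type partners, a pattern seen in 4.34% of all tested genes. With median centring Kcne2, at -0.15 in pair 1, Clic6 and Kcnj13 no longer showed it, and Enpp2, at 0.13 in pair 1, did. The male minus female difference of the log2 ratio was negative for all 10. It was -3.69 for Ttr, with means of -2.15 in male pairs and 1.54 in female pairs, and -0.83 for Kcnj13, with means of -0.44 in male pairs and 0.39 in female pairs. For 8 of the 10 the unadjusted p of this difference was under 0.05, a level passed by 0.808% of tested probes, with Slc4a5 at 0.0785 and Kcnj13 at 0.0548.

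The sex difference did not hold up over all probes. The adjusted p was 0.9998 for each of the 10 (limma with a sex term, no dye term), and no tested probe of the array passed, while 269 had an unadjusted p under 0.05. With a sex and a dye term together, all 10 had an unadjusted p under 0.05, as did 925 probes, and the adjusted p was 0.993. Each sex had only 2 pairs, and for Ttr, Enpp2, Folr1 and Slc4a5 the 2 female pairs had opposite signs. The genes vary together across mice, so the 10 do not give 10 separate observations of the sex difference.

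To see which genes varied together, each level was set against the mean of that gene in the 4 mice of the same dye, and the median of the 10 values gave a score for each mouse. The score was -0.36, 0.38, -0.39 and 0.37 in mutant mice 1 to 4, against -0.52, -0.75, 0.14 and 1.40 in wild-type mice 1 to 4. The wild types held both the highest mouse and the lowest, and the mutants lay between them. The correlations that follow are over these 8 mice, which share 4 arrays, and are given as a description.

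Ttr, Kl, Kcne2, Folr1, Aqp1 and Slc4a5 formed a block in which every pair of genes correlated at r = 0.84 or above, up to 0.97 for Kcne2 with Aqp1. Some readings of Kcne2 and Aqp1 in these correlations were not well above background. Without wild-type mouse 4 the lowest of these correlations was 0.66, and without wild-type mice 1 and 4, the mice farthest from the median in Ttr, it was 0.55. Of the 45 pairs among the 10 genes, 17 correlated above 0.8 over all 8 mice and 12 without wild-type mouse 4. The 5 genes whose r with Ttr was highest were Kcne2 at 0.95, Slc4a5 at 0.94, Aqp1 at 0.89, Folr1 at 0.89 and Kl at 0.85.

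Otx2 and Kcnj13 formed the second pattern. They correlated with each other at r = 0.96, and at 0.97 without wild-type mouse 4, but with Ttr at only 0.18 for Otx2 and 0.40 for Kcnj13. Clic6 lay between the patterns, with r = 0.70 to Otx2, 0.83 to Kcnj13 and 0.63 to Ttr. Otx2 averaged 10.83 over the 4 mice of arrays 1 and 3 and 9.46 over those of arrays 2 and 4, whereas Ttr averaged 12.26 and 14.07 and Kl 7.37 and 8.83 over the same mice. Both sets of arrays held both genotypes, both sexes and both dyes. However, Cy5 labelled the mutant on arrays 1 and 3 and the wild type on arrays 2 and 4. A difference between the sets therefore cannot be told apart from dye orientation.

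Kcnj13 had a second tested probe, which gave another picture. Its levels were 8.73, 9.04, 8.96 and 9.19 in mutant mice, against 8.90, 8.18, 9.63 and 10.12 in wild-type mice, with wild-type mouse 4 the highest and wild-type mouse 2 the lowest. It correlated at 0.88 with Ttr and 0.59 with Otx2, where the brighter probe had 0.40 and 0.96, and the 2 probes correlated at 0.74. The place of Kcnj13 in the second pattern therefore rests on 1 probe. The second probe's mean log2 ratio was -0.23 (limma adjusted p = 0.920), beside -0.03 for the brighter one.

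**Figure D3:**
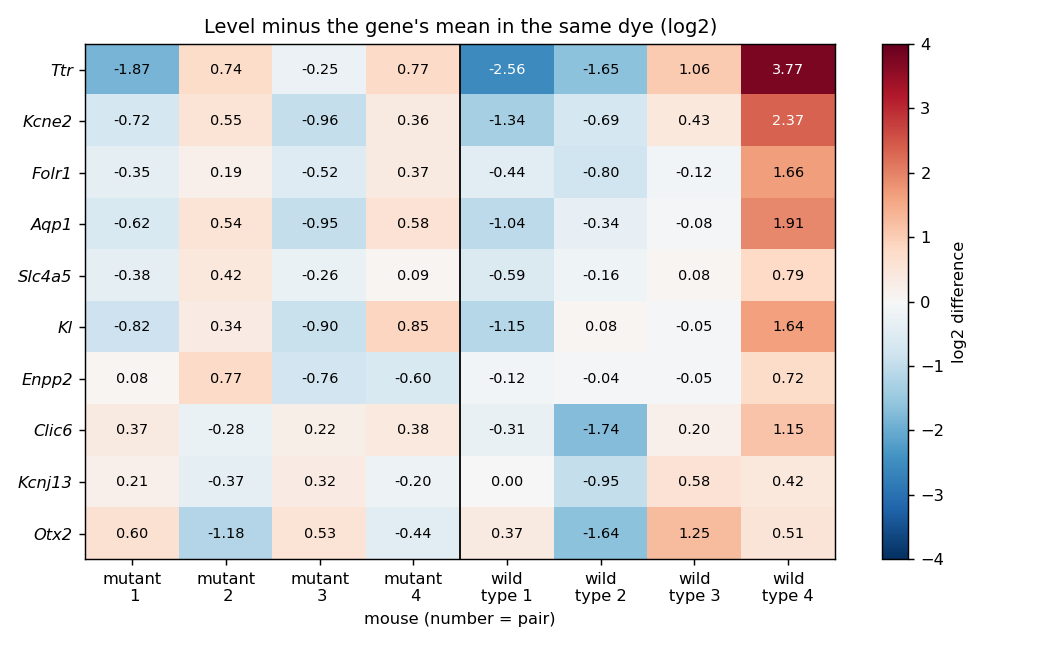
Level of each choroid plexus gene (rows) in each mouse (columns, mutants left of the line and wild types right of it) minus the gene's mean in the 4 mice of the same dye, in log2 units, with the value in each cell. Wild-type mouse 4 is the highest in the upper 6 rows and wild-type mouse 1 the lowest in all of these but Folr1, while Otx2 and Kcnj13 at the bottom are lowest in both mice of pair 2.

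Enpp2 followed neither pattern closely. Its correlation with the median of the other 9 genes was 0.51, and 0.13 without wild-type mouse 4. It correlated at 0.87 with the median of 10 myelin and oligodendrocyte genes, among them Mbp, and at 0.91 without wild-type mouse 4. For Ttr that correlation was 0.08. The myelin list had median log2 ratios of -0.21, 1.60, -0.55 and -0.25 in pairs 1 to 4, beside -0.33, 1.34, -1.24 and -0.79 for Enpp2, so both were high in the mutant of pair 2.

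A wider list of 29 choroid plexus epithelium genes, 25 of them tested, also showed no difference between genotypes. None of the 25 passed an adjusted p of 0.05, and 1 had an unadjusted p under 0.05, a level passed by 6.05% of tested probes. Of the 25, 16 had a negative and 9 a positive mean log2 ratio, with a median of -0.06. By pair, 6, 19, 4 and 4 of the 25 were higher in the mutant, with medians of -0.16, 0.58, -0.39 and -0.27, which have the signs of the 10 genes in pairs 2 to 4 and the opposite sign in pair 1. The wider list's median correlated at 0.98 with Ttr and at 0.93 with the score over 8 mice, and at 0.95 and 0.85 without wild-type mouse 4.

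Of the wider list, bright probes included those of Slc29a4, Cab39l, Kcnj16, Igfbp2, Slc13a4, Slc4a2 and Slc31a1. Their mean log2 ratios lay between -0.35 for Igfbp2, an IGF-binding protein, and 0.38 for Slc29a4, a monoamine transporter. Slc13a4, a sulfate transporter, had -0.29 ± 0.29 (SD over 4 pairs), negative in all 4 pairs. The largest mean ratios in size were those of Prlr, the prolactin receptor, at 0.80 ± 1.18, Wfikkn2, a secreted protein with protease inhibitor domains, at -0.48 ± 0.50, and Slc29a4 at 0.38 ± 1.04. Their limma adjusted p-values were 0.811, 0.811 and 0.847.

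Prlr was 2.54 log2 units higher in the mutant in pair 2 but within 0.44 in the other pairs. Without pair 4, the estimates were 1.39 for Prlr and 0.72 for Slc29a4, so both moved with the pairs used. In that fit pair 2 stood alone in its dye orientation and counted as much as pairs 1 and 3 together. The error came from pairs 1 and 3 alone, so calls from that fit are not given.

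A broader list covered the general machinery of fluid secretion. This list of 15 ion pumps, transporters, channels and carbonic anhydrases, which other brain cells express too, had a median range of 1.35 log2 units over the 8 mice, beside 2.74 for the 10 genes and 0.83 for all tested genes. It had median log2 ratios of 0.03, 0.50, -0.12 and 0.04 in pairs 1 to 4, and none of the 15 passed the adjusted threshold or an unadjusted p of 0.05. Its bright probes included those of Atp1b1, a subunit of the sodium pump, Fxyd1, a regulator of that pump, and Kcna1, a potassium channel, with mean log2 ratios of -0.07 ± 0.20, 0.19 ± 0.38 and 0.41 ± 0.53 (SD over 4 pairs). The list's median correlated at 0.17 with the score.

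A list of 14 thyroid hormone, retinoid and folate carriers and related genes, 12 of them tested, had median log2 ratios of 0.14, -0.28, -0.05 and -0.12, and none passed the adjusted threshold. Its brightest probes belonged to Fgf23, Fgfr1, Rbp4 and Dio2. The list's median correlated at 0.80 with the score and 0.86 with Ttr, which was not repeated without wild-type mouse 4. Rbp4, the retinol-binding protein that transthyretin carries, had log2 ratios of 0.32, -2.39, -0.05 and -0.58, so in pair 2 it was low in the mutant where Ttr was high. Dio2, the enzyme that activates thyroxine, had a mean log2 ratio of -0.68 ± 0.74 and was negative in all 4 pairs. It was the only 1 of the 12 with an unadjusted p under 0.05 (limma), at 0.0102, a level passed by 6.05% of tested probes. Fgfr1, the receptor that Klotho assists, had 0.38 ± 0.64, and Fgf23 0.01 ± 0.42 (SD over 4 pairs). The Fgf23 probe averaged 16.79 on the log2 intensity scale, above the 13.17 of Ttr. Whether it reads Fgf23 RNA alone was not tested.

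Other cells beside the plexus were followed through their own lists. The median of 11 tested ependymal cell genes correlated at 0.92 with the score, and at 0.78 without wild-type mouse 4. That list had median log2 ratios of -0.59, 0.47, -0.28 and -0.20. None of its genes passed the adjusted threshold. An unadjusted p under 0.05 (limma) was seen for 2 of the 11, Tmem212 and Enkur, and for 6.05% of all tested probes. Blood genes, 5 tested and mostly haemoglobin chains, had median log2 ratios of -0.57, 0.44, -0.17 and -0.15, and their median correlated at 0.48 with the score and 0.71 with Ttr. The median of 9 tested endothelial genes correlated with the score at 0.82 and that of 10 tested meningeal genes at -0.35. Of the retinal pigment epithelium list, which shares Ttr, Otx2 and Kcnj13 expression with the plexus, 5 of 6 genes were tested. Their median correlated at -0.36 with the score, while single genes ranged from -0.70 for Tyr to 0.92 for Dct. The mean level of the 5 lay at 8.39 to 8.61 in mutants and 8.24 to 8.74 in wild types. Of 7 pineal and habenula genes 3 were tested, their median correlating at 0.73, and Tph1, Crx and Gpr151 did not pass the filter. Of these list correlations, only the ependymal one was repeated without wild-type mouse 4. Whether these cells had a part in the spread of the 10 genes was not tested.

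Some region lists had medians farther from 0 than the 10 genes in single pairs, in another order of pairs. Striatum genes had median log2 ratios of 1.24, -0.22, 0.15 and -1.26 in pairs 1 to 4, and cortex and hippocampus genes 0.25, -2.21, -0.01 and -0.09. Hypothalamus genes had 0.37, 0.83, 0.02 and 2.04, and cerebellum genes 0.68, 0.23, 0.77 and 1.83. Otx2 correlated at 0.74 with the thalamus list, at 0.71 with the striatum list, at 0.70 with the cerebellum list, at 0.84 with the meningeal list and at 0.13 with the wider choroid plexus list.

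**Figure D4:**
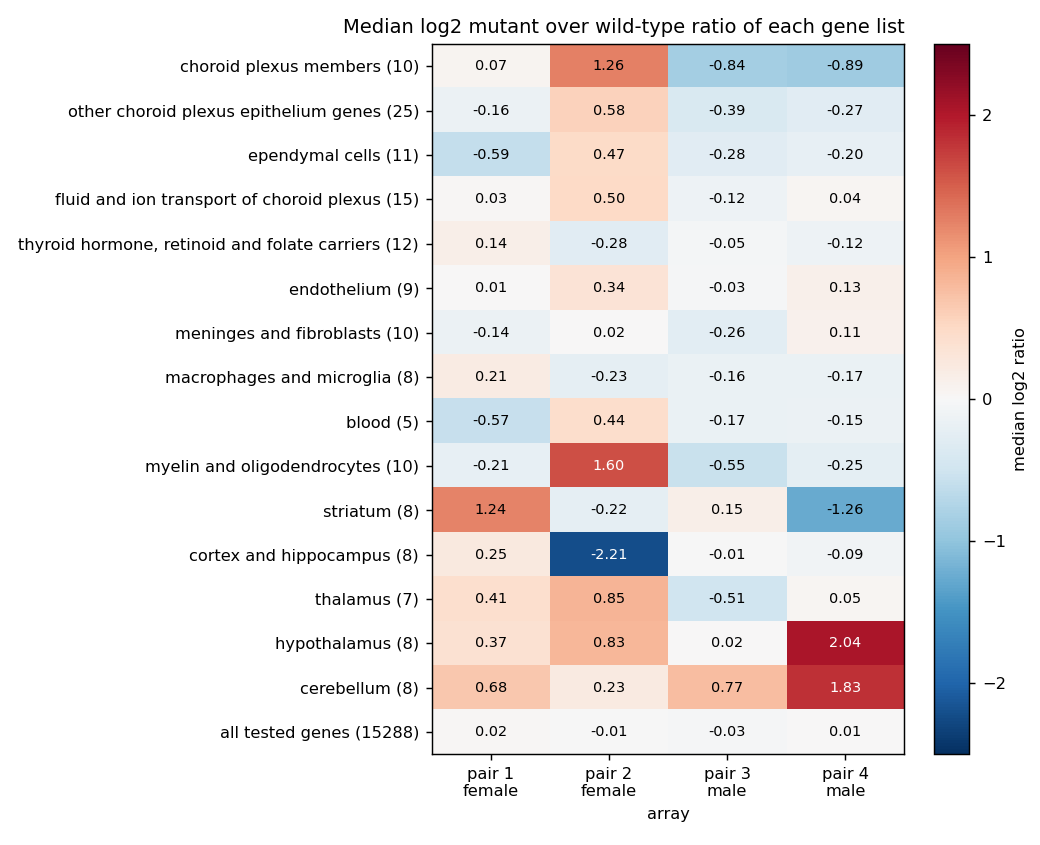
Median log2 mutant over wild-type ratio of each gene list (rows, with the number of tested genes) in each of the 4 pairs (columns), with the value in each cell. The 10 choroid plexus genes, at 1.26 in pair 2 and -0.84 and -0.89 in pairs 3 and 4, share their signs in these pairs with the wider choroid plexus, ependymal, myelin and blood lists.

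The 12 genes outside the 10 whose levels were most like the score over the 8 mice were Hspa12b, Ranbp17, Steap1, Sostdc1, Ccdc89, Spata48, Nek5, Nmbr, Dock6, Isyna1, F5 and Anxa9. Their r lay between 0.95 and 0.98, where the median over 15278 genes was 0.18, and between 0.86 and 0.94 without wild-type mouse 4. A high r did not mean a large range: the range over the 8 mice went from 1.35-fold for Dock6 to 4.69-fold for Sostdc1. Steap1 of the STEAP family, Sostdc1, a secreted BMP and Wnt antagonist, and F5, coagulation factor V, are on the wider choroid plexus list. That list held 7 of the 50 and 10 of the 500 most like genes. Its 25 tested genes had a median r of 0.605, and 22 had a positive r, where 64.1% of all genes did. Sostdc1 had 7.35, 8.64, 7.33 and 8.81 in mutant mice, against 7.65, 7.60, 8.63 and 9.56 in wild-type mice. Its high mice, mutants 2 and 4 and wild types 3 and 4, were those of Ttr, and the genotypes overlapped. With levels not centred by dye, 5 of the 12 remained among the top 12, and Nmbr and Spata48 fell to ranks 485 and 500.

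Kcne2 and Clic6 lie on the same chromosome, 16, with 5 protein-coding genes between them, of which 2 were tested. Neither of these correlated closely with the score. Smim11 had log2 ratios of -0.19, 0.20, -0.31 and -0.13 in pairs 1 to 4. Its signs in pairs 2 to 4 were those of the 10 genes, a pattern seen in 12.8% of all tested genes. It correlated at -0.11 with the score. Rcan1, a calcineurin regulator, had -0.22, -0.54, -0.07 and 0.08 and correlated at 0.09. Kcne1, of the same potassium channel subunit family as Kcne2, did not pass the filter.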

How the data were processed

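RNA of 8 mouse brains was measured on 4 Agilent 2-colour arrays. Spots were read with Agilent Feature Extraction, version 10.7.3.1 (submitters' processing notes). Intensity values used here are the deposited median pixel brightness of each spot and its local background, uncorrected, per the file headers. A log10 ratio of Cy5 over Cy3 was also deposited, made from signals with background subtracted and dyes normalized within the array. Other deposited columns mark, as 0 or 1, spots that are saturated, outliers or clearly brighter than background. The authors also deposited log2 values for the 8 samples with no stated scale. Each column matched, at r of 0.9995 or more over 28016 probes, the log2 processed signal after quantile normalization centred on the probe's median, and column medians were -0.0274, 0.0200, -0.0143 and -0.00231 in mutants and -0.0497, 0.0363, -0.00523 and 0.0346 in wild types.

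Here signals were background-corrected with normexp (offset 50), loess-normalized within arrays and, for levels of single mice, Aquantile-scaled between arrays (limma 3.58.1, R 4.3.3). Control spots (3671 of 62976 per array) entered the background fit and the scaling between arrays, but not the loess fit or the results. Outlier spots entered all these steps and the detection filter, and were left out when the signals of a probe were averaged. Gene symbols came from matching the probes' accessions to RefSeq, which named 27509 of 55681 probes. A probe was tested if well above background in at least 3 of 4 mice of either genotype, which left 33307 probes and 15288 genes, each represented by its brightest tested probe. The within-array log2 ratio was fitted with a genotype and a dye term (2 residual degrees of freedom, prior 3.653), and p-values were adjusted by Benjamini-Hochberg over all tested probes. The 4 arrays limit the precision.

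Same-numbered mutant and wild-type mice shared an array, which pairs them by design. The correlation of their deviations from the genotype means was 0.791, 0.314, 0.494 and 0.740 in pairs 1 to 4, and the highest with a mouse of another number was 0.388, 0.690, 0.388 and 0.690, so for pair 2 it was above that within the pair. Alternatives were other background and normalization steps, the authors' table, no filter, no dye term, a sex term, separate channels with and without the array as a block, an intensity trend, the mean of a gene's probes, and leaving out each pair. Some correlations over mice were repeated without wild-type mouse 4 and without wild-type mice 1 and 4, chosen after seeing the data. These were the correlations among the 10 genes, of the genes most like the score, of the wider and ependymal lists, and of Enpp2 with the myelin list. The 10 genes, the other gene lists and the tests were chosen with earlier results of these data known.

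Named beside the 10 genes were the 8 brightest genes of the wider choroid plexus list and the 3 with the largest ratio in size, the 4 brightest of the ion transport and of the carrier list, and the 12 genes most like the score. Some of these genes are not reported here. Other genes were named after their values were seen. A genome of the build in the file headers was not used here.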

Additional observations from a re-analysis of the deposited data

Results flagged for a closer look

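Besides the 11 tested probes of the 10 choroid plexus genes, 2 probes did not pass the detection filter yet gave a signal in some mutant mice. The second Folr1 probe was well above background in 2 mutant mice and in 0 wild-type mice. The second Slc4a5 probe was well above background in 1 mutant mouse and in 0 wild-type mice. Over the 8 mice they correlated with the tested probe of the same gene at 0.41 for Folr1 and 0.92 for Slc4a5. No difference was tested on these dim probes.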

How the results depend on the processing

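The count of choroid plexus genes passing the adjusted threshold stayed at 0 of 10 under all 14 alternatives, and their median log2 ratio stayed between -0.28 and -0.22 except when a pair was left out, when it ranged from -0.66 to 0.31. Leaving out a pair gave log2 ratios of -1.65 to 1.04 for Ttr, -0.557 to 0.0336 for Kl, -1.19 to 0.43 for Kcne2, -0.79 to 0.28 for Enpp2, -0.72 to 0.42 for Folr1, -0.22 to 0.91 for Clic6, -0.77 to 0.33 for Aqp1, -0.59 to 0.11 for Otx2, -0.38 to 0.26 for Slc4a5 and -0.33 to 0.27 for Kcnj13. These estimates kept the dye term, so the pair left alone in its dye orientation counted as much as the other pairs together. Their signs can therefore differ from those of plain means of the remaining pairs. On these estimates, leaving out pair 4 turned the sign of 9 of the 10, pair 3 of 6, and pair 2 of Clic6 alone. No sign of a mean ratio turned under another alternative, and the cause of these changes was not tested. Other scales moved 4 mean ratios over 1.5 times. Kl was -0.49 by the scanner's ratio and -0.50 in the authors' deposited table, Aqp1 -0.34 and -0.38, Slc4a5 -0.03 by the scanner's ratio and -0.13 with median centring, and Kcnj13 -0.11 on both deposited scales and -0.13 over the mean of its probes. The wider list had 0 calls except on leaving out pairs, 0 to 2. Over all tested probes 3 passed, against 0 with the scanner software's ratio, the authors' deposited table or a sex term, 0 to 933 on leaving out a pair, 1 in separate channels with no replicate block and 25 with the array as a random replicate block. The block changed no call among the 10 genes. Of the 12 genes most like the score, 5 remained without dye centring. Signal not well above background limits Kcne2 in 3 mice and Aqp1 in 1.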
